A study of Mus musculus with 6 samples.

Results

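The 7 genes described here encode the hormones of the islet cells that do not make insulin, together with a pair of genes of the same cells: glucagon (Gcg) of alpha cells, somatostatin (Sst) of delta cells, pancreatic polypeptide (Ppy) of PP cells, its relative peptide YY (Pyy), ghrelin (Ghrl) of epsilon cells, the retinol carrier Rbp4 and the homeodomain factor gene Hhex. They were chosen by name out of the 34745 genes of the deposited table, and all 7 were found by their Ensembl identifiers. RNA sequencing of poly-A RNA was done on isolated islets of C57BL/6 mice aged 8 weeks, with 2 libraries in each of 3 groups. WT islets came from wild-type mice. KO islets came from βRapKO mice, in which Rptor, the gene of the mTORC1 subunit Raptor, is deleted in beta cells. KO+DNMT3A islets were βRapKO islets with added Dnmt3a, which encodes a DNA methyltransferase and, per the series' design, was delivered by lentivirus. The promoter that drives the recombinase, the sex of the mice and whether islets were pooled are not given in the sources used here. The deposited column names of WT and KO carry the word GFP, which the labels do not explain. These names also end in numbers other than the replicate numbers used here, and WT replicate 1, KO replicate 2 and KO+DNMT3A replicate 2 all carry the number 3.

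The islet is a small endocrine organ in which insulin-producing beta cells are intermingled with alpha, delta, PP and, in adults, rare epsilon cells. Glucagon raises blood glucose, whereas somatostatin restrains the release of both insulin and glucagon from neighbouring cells. Pancreatic polypeptide, peptide YY and neuropeptide Y form a family of related peptides, and in mouse islets peptide YY is made in several of the non-beta cell types. Hhex is the transcription factor that maintains delta cells, and Rbp4 is a delta cell marker in mouse islets that is also made in large amounts by liver and fat. All values are FPKM (fragments per kilobase of transcript, scaled to the size of the library). Comparisons between genes therefore rest on the transcript lengths used. In whole islets, fewer cells of a type and less RNA per cell cannot be told apart. Which cell type made a transcript, beta cells included, was not measured either.

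In the GRCm38/mm10 annotation (GENCODE M21) Ppy (ENSMUSG00000017316) lies on the minus strand of chromosome 11 from 102099930 to 102101319, and Pyy (ENSMUSG00000017311) lies beside it on the same strand from 102106676 to 102107832, with 5356 bases between them. Sst (ENSMUSG00000004366) is on chromosome 16 from 23889573 to 23890958 and Gcg (ENSMUSG00000000394) on chromosome 2 from 62474530 to 62483650. Ghrl (ENSMUSG00000064177) is on chromosome 6 from 113716119 to 113719880. Hhex (ENSMUSG00000024986) and Rbp4 (ENSMUSG00000024990) are both on chromosome 19, from 37434810 to 37440731 and from 38116629 to 38125281, 675897 bases apart. Ghrl overlaps 2 genes on the other strand, Gm26982 and Gm44033, and whether the counting used strand is not given in the sources used here, so its values are uncertain. The longest run of identical bases shared by Ppy and Pyy transcripts was 10, against 56 for Ins1 and Ins2.

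Upstream sequences are shown for the neighbours Ppy and Pyy, whose levels had a similar pattern, for Sst, which varied most in relative terms among the genes detected in every library, and for Gcg, which varied least. Each line gives the 250 bases before the RefSeq start site (GRCm38.p6), 5′ to 3′ on the minus strand, and capitals mark CG dinucleotides, the sites at which DNA methyltransferases such as Dnmt3a act. The windows are chr11:102101320-102101569 for Ppy, chr11:102107833-102108082 for Pyy, chr16:23890845-23891094 for Sst and chr2:62483654-62483903 for Gcg. DNA methylation was not measured in these files.
Ppy: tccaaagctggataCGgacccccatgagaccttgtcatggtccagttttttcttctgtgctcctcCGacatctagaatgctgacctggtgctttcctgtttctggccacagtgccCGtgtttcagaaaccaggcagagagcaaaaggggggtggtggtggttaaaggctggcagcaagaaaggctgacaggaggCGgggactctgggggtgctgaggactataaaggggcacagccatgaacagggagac
Pyy: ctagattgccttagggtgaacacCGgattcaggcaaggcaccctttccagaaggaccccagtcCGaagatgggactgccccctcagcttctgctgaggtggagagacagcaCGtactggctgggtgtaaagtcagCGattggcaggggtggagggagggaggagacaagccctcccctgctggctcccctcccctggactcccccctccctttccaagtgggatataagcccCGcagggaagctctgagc
Sst: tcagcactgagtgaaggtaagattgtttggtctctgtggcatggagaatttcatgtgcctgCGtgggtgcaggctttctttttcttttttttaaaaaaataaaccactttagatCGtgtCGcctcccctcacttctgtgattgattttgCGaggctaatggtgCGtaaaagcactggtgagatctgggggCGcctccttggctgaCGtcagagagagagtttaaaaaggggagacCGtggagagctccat
Gcg: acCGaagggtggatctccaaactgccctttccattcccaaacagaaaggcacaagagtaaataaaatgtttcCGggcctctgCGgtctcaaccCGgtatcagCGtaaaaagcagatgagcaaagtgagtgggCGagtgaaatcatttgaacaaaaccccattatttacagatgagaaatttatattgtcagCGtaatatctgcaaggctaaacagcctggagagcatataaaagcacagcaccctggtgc
All 7 genes matched the RefSeq promoter table. The Ppy window held 4 CG dinucleotides, the first Pyy window 5, the Gcg window 7 and the Sst window 8, against a median of 6 over 32851 windows of the same length. The Hhex window held 32, and only 4.6% of all windows held at least as many. Rbp4 has 2 annotated starts, with 5 and 28. The 4 Ghrl windows held 1 or 2. The cAMP response element TGACGTCA, searched on both strands, began 48 bases before the Sst start, and it was present in 1.55% of all windows. The TATA box letters TATAAA began 31 bases before the Ppy start, 24 before the Gcg start (with another match on the opposite strand) and 28 before the second Rbp4 start, and 12.37% of all windows held them on either strand. A match to these letters describes the sequence and is not evidence of a bound factor.

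Libraries of 1 group differed from each other, and 2 libraries stood apart. In WT replicate 1 and KO replicate 2, called insulin-poor below, Ins1 and Ins2 held 0.17% and 0.11% of the summed FPKM, against 16.5% to 30.5% elsewhere. Mitochondrially encoded transcripts held 44.8% and 50.9% there and 16.5% to 26.5% elsewhere. Steps between low FPKM values imply 244613 fragments on genes in WT replicate 1 and 780144 to 1919572 in the others. The labels do not say whether libraries came from separate mice, so the tests reflect the spread among the 6 libraries alone, part of which may be technical. Rptor was 0.80 and 1.06 in the WT libraries against 0.38 and 1.51 FPKM in the KO libraries. These values are low. For scale, 1 fragment on 2 kilobases was worth 2.04 FPKM in WT replicate 1 and 0.26 to 0.64 FPKM elsewhere. The libraries labelled KO could thus not be told from WT by the targeted gene. Its deletion is confined to beta cells, and the value of 1.51 was in the insulin-poor KO replicate 2. Between the insulin-rich libraries it was 0.38 in KO replicate 1 and 1.06 in WT replicate 2, each a single library. Dnmt3a was 2.94 and 4.43 in the WT libraries, 3.19 and 2.5 in the KO libraries, with 3.62 and 3.80 FPKM under KO+DNMT3A. The KO+DNMT3A values lay inside the WT range. Both lay above both KO values, as in 17.2% of all genes tested, with a log2 fold change of 0.30 (SE 0.51) against KO. The added gene was thus not clearly seen in its own transcript either.

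Pancreatic polypeptide had the highest FPKM of the 7 transcripts in 5 of 6 libraries. This order depends on transcript length: in KO+DNMT3A replicate 2 about 8736 fragments fell on Sst and 8064 on the shorter Ppy. Averaged over all libraries Ppy stood at 9692 FPKM, Sst at 4249 FPKM, Pyy at 2398 FPKM, Gcg at 1674 FPKM, Rbp4 at 51.8 FPKM, Hhex at 5.86 FPKM and Ghrl at 4.51 FPKM. The order Ppy, Sst, Pyy, Gcg held in 5 libraries, and in WT replicate 1 it was Gcg, Ppy, Pyy, Sst. Neighbours in this order were not always separated: Sst and Pyy were 2736 and 2712 FPKM in KO replicate 2, and Hhex and Ghrl overlapped in KO+DNMT3A, whereas Ghrl was above Hhex in KO and below it in WT. Of the 7 genes, all passed the filter of at least 1 FPKM in at least 2 libraries.

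**Figure D1:**
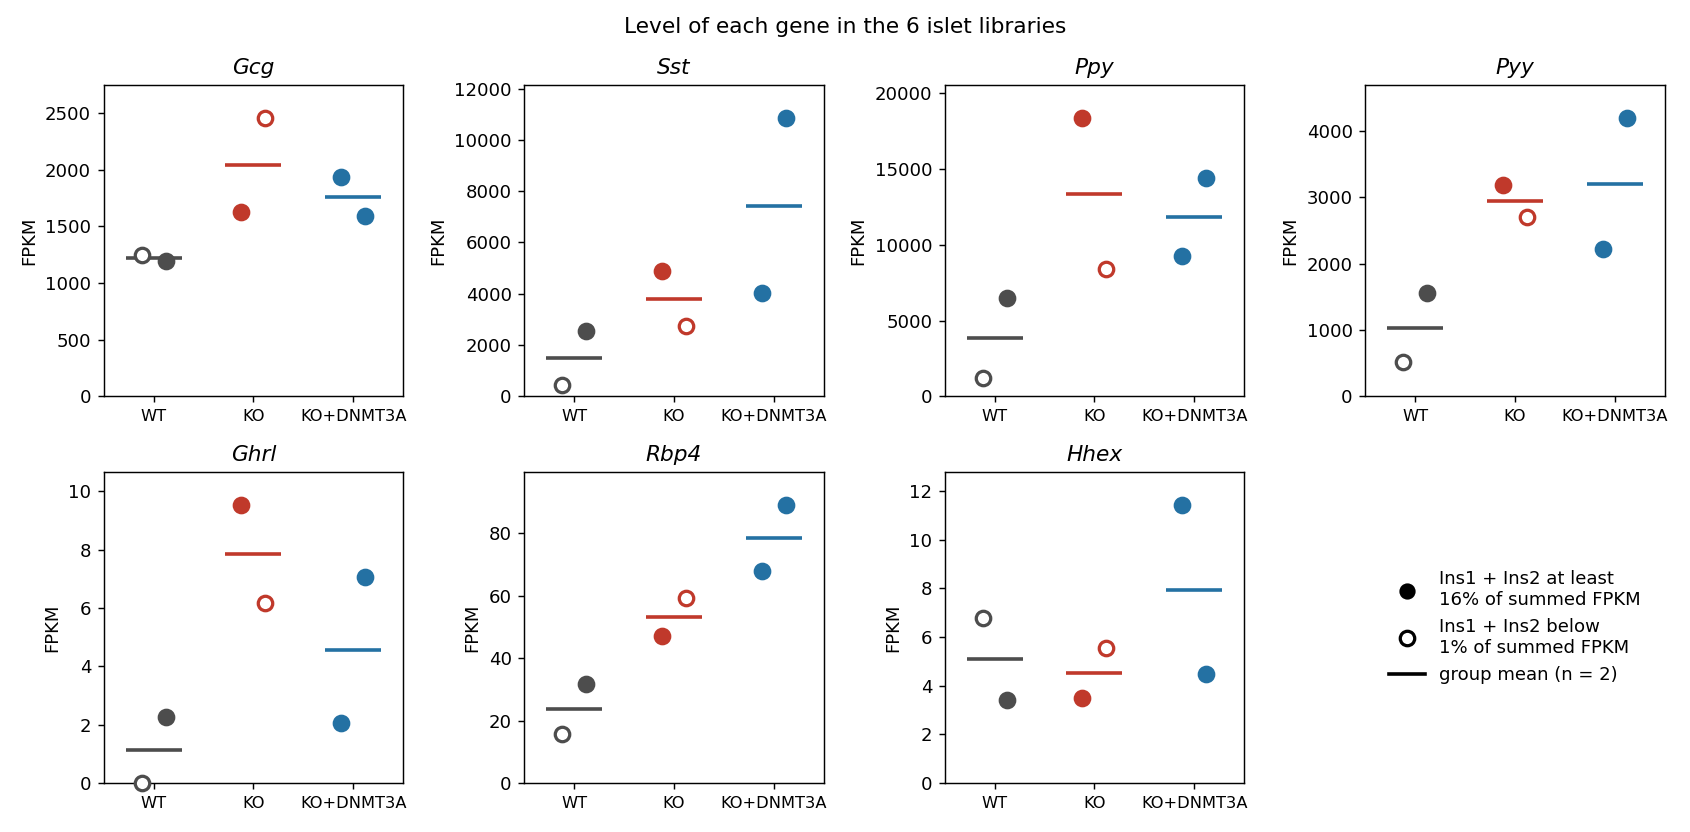
FPKM of each gene (vertical axes, linear from 0) in the WT, KO and KO+DNMT3A groups, with a point per library, a bar at each group mean and open points for the insulin-poor libraries. Both KO points lie above both WT points for every gene except Hhex, and Rbp4 steps up from WT to KO to KO+DNMT3A without overlap.

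Among the peptide YY family, Ppy was 1178 and 6511 in the WT libraries, 18361 and 8399 in the KO libraries, with 9269 and 14437 FPKM under KO+DNMT3A. Every KO and KO+DNMT3A library lay above both WT libraries, and the insulin-poor library was the lower one in WT and in KO. The Ppy group means were 3844 ± 3771 FPKM in WT, against 13380 ± 7044 in KO and 11853 ± 3654 in KO+DNMT3A (SD, n = 2). Pyy was 512 and 1553 in the WT libraries, 3191 and 2712 in the KO libraries, with 2223 and 4196 FPKM under KO+DNMT3A. Again the WT libraries were the lowest 2 of the 6, and KO and KO+DNMT3A overlapped. The ratio of Ppy to Pyy lay between 2.30 and 5.75, lowest in WT replicate 1 (2.30) and KO replicate 2 (3.10) and highest in KO replicate 1. The family's other member, Npy, the neuropeptide Y gene, was listed at 0 in WT replicate 1 and was 5.44 in WT replicate 2, 32.2 and 13.6 in the KO libraries, with 59.8 and 7.90 FPKM under KO+DNMT3A.

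Among the 6 genes detected in every library, which leaves out Ghrl, somatostatin varied over the widest relative range, 24.5-fold from its lowest to its highest library. Sst was 443 and 2560 in the WT libraries, 4873 and 2736 in the KO libraries, with 4036 and 10846 FPKM under KO+DNMT3A. KO replicate 2 lay only slightly above WT replicate 2, and KO+DNMT3A replicate 2 was the highest of the 6. Rbp4 was 15.8 and 31.7 in the WT libraries, 47.0 and 59.3 in the KO libraries, with 67.9 and 89.0 FPKM under KO+DNMT3A. The Rbp4 group means were 23.7 ± 11.3 FPKM in WT, against 53.2 ± 8.65 in KO and 78.4 ± 14.9 in KO+DNMT3A (SD, n = 2). It was the one gene of the 7 whose 3 groups did not overlap at all. Of all genes tested, 2.98% had no overlap between any of the groups, and 1.14% had it in this order from WT to KO to KO+DNMT3A. It rested on about 4 fragments in WT replicate 1 and on 36 to 151 in the others. The ratio of Sst to Rbp4 was 28.1 in WT replicate 1, 46.2 in KO replicate 2 and 59.5 to 121.9 in the remaining libraries, so the delta cell hormone and this delta cell marker did not keep a fixed ratio.

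Hhex was 6.79 and 3.42 in the WT libraries, 3.50 and 5.54 in the KO libraries, with 11.4 and 4.46 FPKM under KO+DNMT3A. All 3 groups overlapped, and Hhex did not follow Sst or Rbp4 across libraries. The highest Hhex values were in KO+DNMT3A replicate 1 and WT replicate 1, which were also the libraries with the highest summed duct markers, 723.6 and 2280 FPKM, against 78.6 to 160 FPKM in the other 4. Whether duct cells contributed to Hhex was not tested. Hhex rested on about 3 fragments in WT replicate 1, 6 to 9 in 4 libraries and 40 in KO+DNMT3A replicate 1.

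Glucagon was the steadiest of the 4 abundant hormone transcripts, with a 2.05-fold range. Gcg was 1245 and 1197 in the WT libraries, 1623 and 2454 in the KO libraries, with 1932 and 1592 FPKM under KO+DNMT3A. Its WT libraries were close together, although Ins1 was 647 in one and 100770 FPKM in the other, and its highest library was the insulin-poor KO replicate 2. Ghrelin was listed at 0 in WT replicate 1, where 1 fragment would be worth 4.59 FPKM if the longest coding transcript is assumed, and at 2.25 FPKM in WT replicate 2. Ghrl was 9.53 and 6.18 FPKM in KO, with 2.05 and 7.06 FPKM under KO+DNMT3A, on about 4 to 12 fragments. Mboat4, the acyltransferase gene that activates ghrelin, was listed at 0 in all 6 libraries.

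The make-up of the 5 peptide hormone transcripts differed within groups as well as between them. Of their summed FPKM, Ppy took 34.9% in WT replicate 1 and between 46.5% and 65.4% elsewhere. Gcg took 36.9% and 10.1% in WT, 5.78% and 15.1% in KO, and 11.1% and 5.12% in KO+DNMT3A. Within each of WT and KO, the insulin-poor library had the higher Gcg share. Relative to Gcg, a scale that does not depend on how the library was normalised, Ppy was 0.95 and 5.44 times as high in WT, 11.3 and 3.42 in KO, and 4.80 and 9.07 in KO+DNMT3A. On this scale KO overlapped WT, unlike in FPKM. Sst relative to Gcg was 0.36 and 2.14 in WT, 3.0 and 1.11 in KO, and 2.09 and 6.81 in KO+DNMT3A, which also overlapped.

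**Figure D2:**
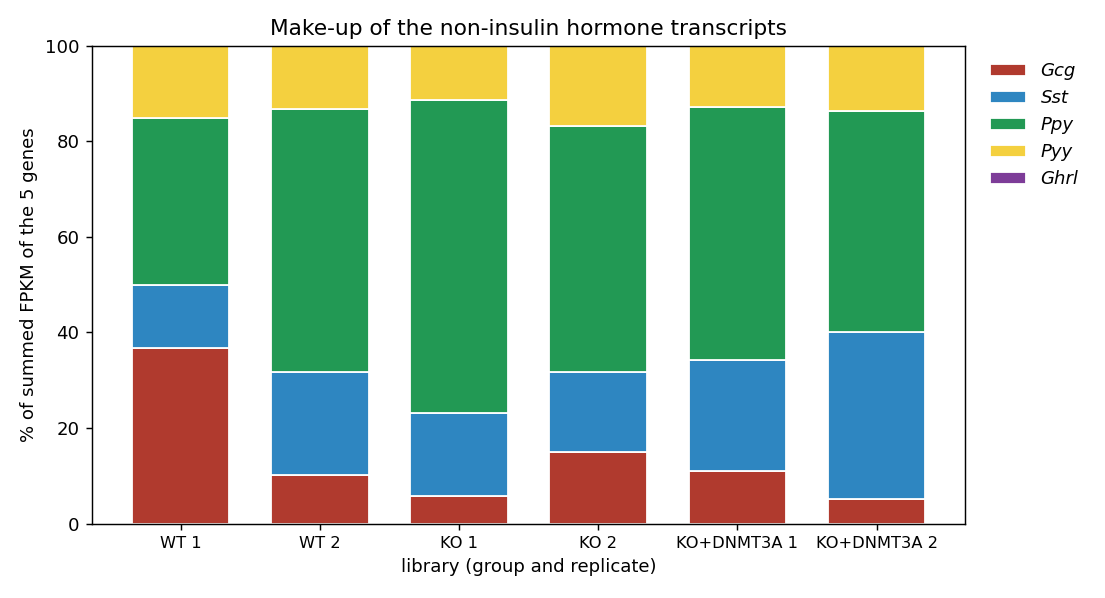
Share of the summed FPKM of Gcg, Sst, Ppy, Pyy and Ghrl taken by each (vertical axis, %) in the 6 libraries. Ppy takes the largest share in 5 libraries and Gcg in WT replicate 1, where it holds 36.9%; Ghrl is too small to see.

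The 5 hormone genes together summed to 3378 and 11822 in the WT libraries, 28056 and 16307 in the KO libraries, with 17462 and 31079 FPKM under KO+DNMT3A. As a share of FPKM left after removing insulin, amylin, mitochondrial and rRNA-associated transcripts, they took 1.48% and 5.23% in WT, 12.9% and 6.26% in KO, and 7.47% and 13.3% in KO+DNMT3A. Both measures put the WT libraries lowest, and the WT range was the widest in relative terms. Between the insulin-poor libraries the hormone sum differed: WT replicate 1 stood at 3378 and KO replicate 2 at 16307 FPKM, the latter inside the range of the insulin-rich libraries. Chga, the chromogranin A gene of endocrine secretory granules, was 239 and 279 FPKM in the insulin-poor libraries and 2501 to 3590 FPKM in the others.

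**Figure D3:**
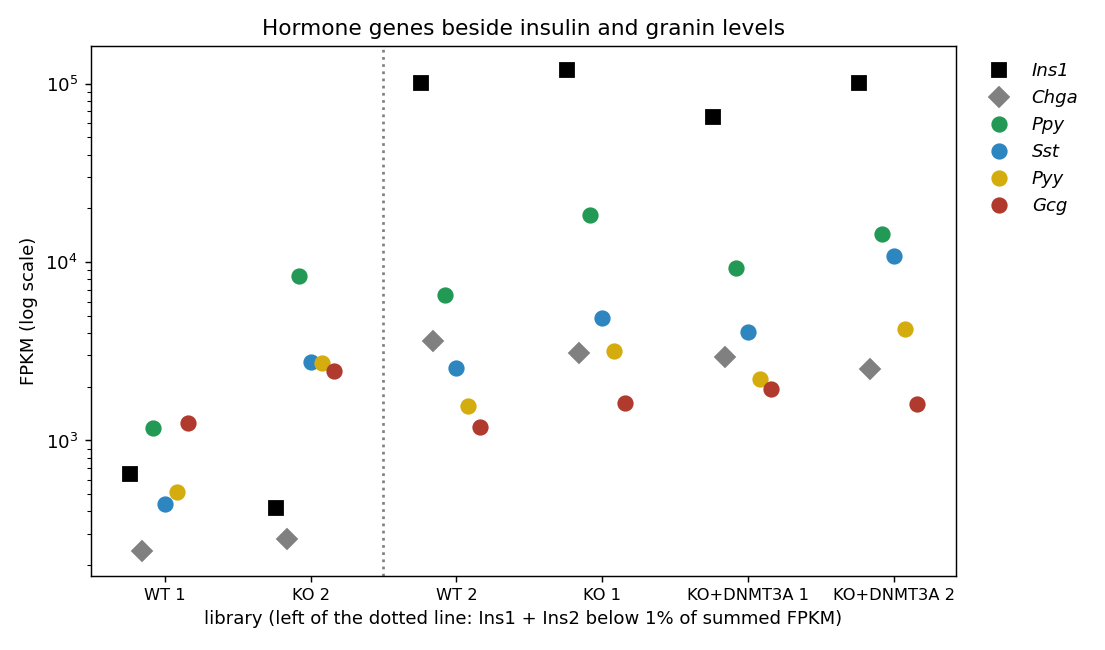
FPKM on a log axis of 4 hormone genes, Ins1 and Chga in each library, with the insulin-poor libraries left of the dotted line. Ins1 and Chga are lowest in both, Gcg stays between 1197 and 2454 FPKM in all 6, and Ppy, Sst and Pyy are low in WT replicate 1 but not in KO replicate 2.

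The KO and WT libraries were set side by side to compare these transcripts between whole islets with and without the beta cell deletion of Rptor. The mean was higher in KO for 6 of the 7 genes, and in all 6, Gcg, Sst, Ppy, Pyy, Ghrl and Rbp4, both KO libraries lay above both WT libraries. Over all 13233 genes tested, 9.36% had KO entirely above WT, 10.5% entirely below, and 52.4% had a higher mean in KO. None of the 7 passed the limma test (adjusted p = 1 for each), and 0% of all genes did. At an unadjusted level, 1.81% had an unadjusted p under 0.05, and of the 7 only Ghrl did (0.0178). The log2 fold change was 2.16 (SE 1.0) for Ppy, 1.72 (SE 0.80) for Pyy, 1.78 (SE 1.02) for Sst, 1.20 (SE 0.60) for Rbp4 and 0.71 (SE 0.66) for Gcg, all on the log2(FPKM + 1) scale. Ghrl had the largest value, 2.27 (SE 0.76), from few fragments. Hhex was -0.11 (SE 0.62). The median over the 7 genes was 1.72, and over all genes tested 0.03. The genes were chosen with these values known, so their count is a description.

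The size of the KO difference rested on WT replicate 1. Without it the log2 fold change was 0.93 for Ppy, 0.92 for Pyy, 0.51 for Sst, 0.72 for Rbp4 and 1.42 for Ghrl, and without WT replicate 2 it was 3.40, 2.52, 3.04, 1.68 and 3.12. For Gcg the values were 0.74 and 0.68. KO replicate 2 exceeded WT replicate 2 by 0.37 for Ppy, 0.80 for Pyy, 0.10 for Sst and 0.88 for Rbp4, each a single library against another. For Sst this order turned when FPKM was taken as a share of what is left without insulin, amylin, mitochondrial and rRNA-associated transcripts, at 1.05% in KO replicate 2 and 1.13% in WT replicate 2. Relative to Gcg, KO replicate 2 was below WT replicate 2 for Sst (1.11 and 2.14), Ppy (3.42 and 5.44) and Pyy (1.10 and 1.3). Between the insulin-poor libraries KO replicate 2 exceeded WT replicate 1 by 2.83 for Ppy, 2.40 for Pyy, 2.62 for Sst and 0.98 for Gcg. Between the insulin-rich libraries KO replicate 1 exceeded WT replicate 2 by 1.5, 1.04, 0.93 and 0.44. When WT replicate 1 and KO replicate 2 were both dropped, so that WT and KO had 1 library each and the spread came from KO+DNMT3A, the estimate was 1.5 (SE 0.52) for Ppy and 0.93 (SE 0.77) for Sst.

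**Figure D4:**
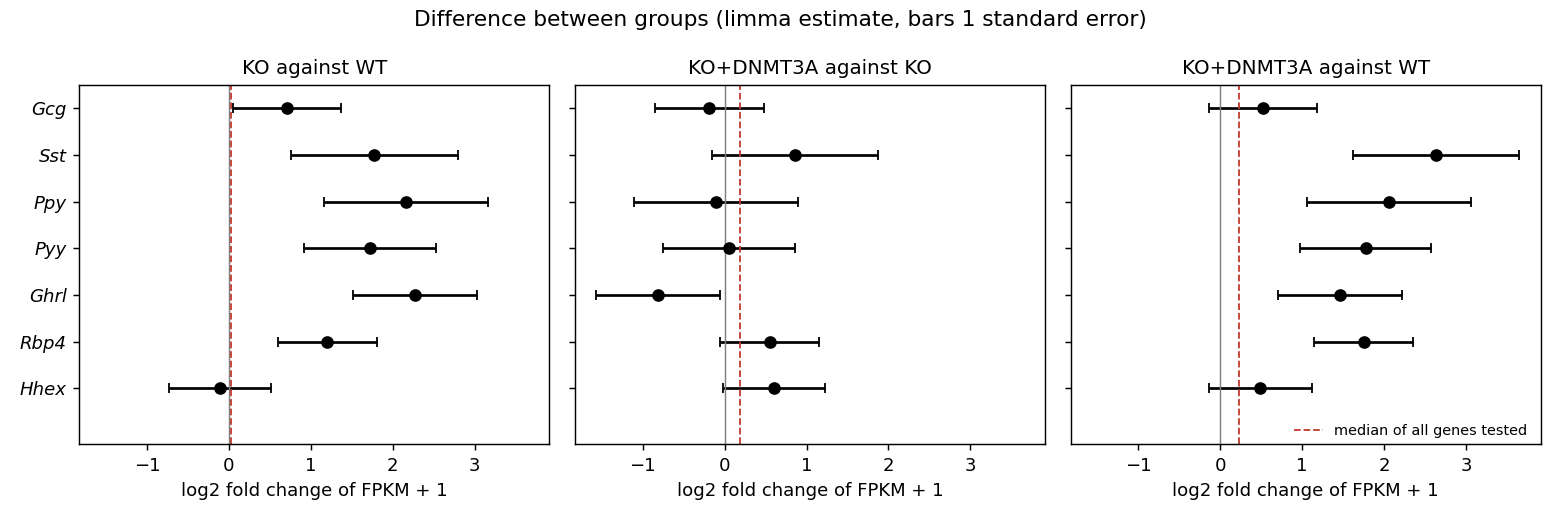
Log2 fold change of FPKM + 1 (horizontal axes) for the 7 genes in each comparison, with bars of 1 standard error from limma and a dashed line at the median of all genes tested. In KO against WT and KO+DNMT3A against WT, Sst, Ppy, Pyy, Ghrl and Rbp4 lie between 1.20 and 2.63, and in KO+DNMT3A against KO all 7 lie between -0.81 and 0.86.

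KO+DNMT3A was compared with KO for the effect of adding Dnmt3a. The mean was higher in KO+DNMT3A for 4 of the 7 genes and lower for 3, while 68.2% of all genes had a higher mean. Rbp4 alone had both KO+DNMT3A libraries above both KO libraries, where 17.2% of all genes did, and none of the 7 lay entirely below, where 5.43% of all genes did. The log2 fold change was 0.55 (SE 0.60) for Rbp4, 0.86 (SE 1.02) for Sst, 0.60 (SE 0.62) for Hhex, 0.05 (SE 0.80) for Pyy, -0.10 (SE 1.0) for Ppy, -0.19 (SE 0.66) for Gcg and -0.81 (SE 0.76) for Ghrl. The limma adjusted p was 1 for each, 0% of all genes passed, and 1.11% had an unadjusted p under 0.05 (0 of the 7). The median over the 7 was 0.05, against 0.19 over all genes, and median scaling brought the latter to -0.01. With that scaling Pyy turned to -0.15 and Rbp4 was 0.35. With standard errors of 0.60 to 1.02, these values do not show that the levels stayed the same.

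KO+DNMT3A was also compared with WT, which shares libraries with both comparisons above. All 7 genes had a higher mean in KO+DNMT3A, as did 64.8% of all genes tested. In 5 of them, Gcg, Sst, Ppy, Pyy and Rbp4, both KO+DNMT3A libraries lay above both WT libraries, where 19.2% of all genes did, and none lay entirely below, where 7.87% did. The log2 fold change was 2.63 (SE 1.02) for Sst, 2.06 (SE 1.0) for Ppy, 1.78 (SE 0.80) for Pyy, 1.75 (SE 0.60) for Rbp4 and 1.46 (SE 0.76) for Ghrl. It was 0.52 (SE 0.66) for Gcg and 0.49 (SE 0.62) for Hhex. None passed (limma adjusted p = 0.997 for each; 0% of all genes), and 2 of the 7 had an unadjusted limma p under 0.05, as did 2.86% of all genes: 0.02 for Rbp4 and 0.0329 for Sst. Without WT replicate 1 the values were 1.37 for Sst, 0.83 for Ppy, 0.98 for Pyy and 1.27 for Rbp4. The median of all genes was 0.23, and 0.03 after median scaling, with which Sst stood at 2.43 and Rbp4 at 1.55.

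Of 12 alpha cell genes other than Gcg, 10 passed the filter, of which 6 had a higher and 4 a lower mean in KO than in WT (median 0.02, and -0.03 without WT replicate 1). Ttr, which encodes transthyretin, the partner of Rbp4 in plasma and a gene abundant in islets, was 23.5 and 305 in the WT libraries against 360 and 77.8 FPKM in the KO libraries. Ttr was low in both insulin-poor libraries, whereas Rbp4 was low in WT replicate 1 alone of them. The vitamin D binding protein gene Gc was 94.0 and 59.4 in the WT libraries against 89.0 and 16.4 FPKM in the KO libraries, and Slc7a2, an amino acid transporter gene, stayed between 3.14 and 5.32 FPKM.

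Delta and PP cell lists were thinly covered. Of 7 delta cell genes other than Sst, Rbp4 and Hhex, 4 passed the filter, and the ghrelin receptor gene Ghsr and the leptin receptor gene Lepr were each above 0 in a single library. Frzb, a secreted Wnt antagonist gene, was listed at 0 in WT replicate 1, was 23.7 in WT replicate 2, 51.2 and 3.87 in the KO libraries, with 60.4 and 24.3 FPKM under KO+DNMT3A. The calcium-sensing receptor gene Casr was 1.23 and 2.64 in the WT libraries, 2.12 and 2.32 in the KO libraries, with 6.77 and 3.65 FPKM under KO+DNMT3A, whose libraries were the highest 2. Spock3 ranged from 0 to 3.21 FPKM. Of 7 PP cell genes 4 passed, and Slc6a4 and Aqp3 were listed at 0 in all libraries. Meis2 ranged from 7.80 to 17.4 FPKM, Etv1 from 2.78 to 5.53 FPKM, Fev from 1.22 to 2.84 FPKM and Id4 from 0 to 3.86 FPKM. For KO over WT the median log2 fold change stood at 0.12 in the delta and 0.04 in the PP list, and without WT replicate 1 at -0.14 and -0.22, and no gene of either passed in any of the 3 comparisons.

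The endocrine factor and prohormone genes named next were each lowest in WT replicate 1. Of 9 endocrine factor genes that passed the filter, 8 had a higher mean in KO than in WT (median 0.79). This rested on WT replicate 1: the median was -0.19 without it, 1.71 without WT replicate 2 and 0.12 without both insulin-poor libraries. Neurod1 was 47.9 and 123 in the WT libraries against 169 and 67.1 FPKM in the KO libraries, Nkx2-2 10.5 and 46.5 against 53.7 and 33.9 FPKM, and Isl1 9.85 and 33.5 against 36.6 and 32.6 FPKM. Rfx6 was 8.94 and 17.0 against 18.6 and 10.9 FPKM. Each of these 4 overlapped between WT and KO. Among genes that cut and finish prohormones, 8 of 9 passed the filter, and 5 had a higher mean in KO (median 0.48, and -0.40 without WT replicate 1). Pcsk2, the convertase that releases glucagon, was 39.8 and 345 in the WT libraries against 535 and 98.6 FPKM in the KO libraries, and Cpe, the carboxypeptidase that trims the cut ends, 88.1 and 487 against 629 and 278 FPKM. Pcsk1n, a convertase inhibitor gene, was 846 and 1676 against 1161 and 1309 FPKM, and Scg5, the Pcsk2 chaperone gene, 27.2 and 344 against 600 and 120 FPKM. In KO replicate 2 these genes were thus below WT replicate 2, while Ppy, Pyy and Sst were above it.

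Most of the hormone receptor genes listed were at or near 0. Of 15 listed genes 5 were at 0 in all libraries, among them the pancreatic polypeptide receptor gene Npy4r and the Pyy receptor genes Npy1r and Npy5r, and 4 passed the filter. The somatostatin receptor gene Sstr3 was 4.16 and 14.4 in the WT libraries, 19.1 and 17.3 in the KO libraries, with 15.6 and 28.5 FPKM under KO+DNMT3A. Its KO and KO+DNMT3A libraries all lay above WT. The glucagon receptor gene Gcgr was 1.59 and 22.4 in the WT libraries against 12 and 11.7 FPKM in the KO libraries. The incretin receptor gene Glp1r was 0 and 20.8 against 15.6 and 0 FPKM. Gipr, whose hormone none of the 7 genes encodes, was 10.3 and 25.4 against 9.97 and 6.64 FPKM. Its KO libraries lay entirely below WT, as in 10.5% of all genes tested. Of 14 genes that carry or convert retinol, 8 passed, 4 with a higher and 4 with a lower mean in KO (median -0.03). Aldh1a3, a retinaldehyde dehydrogenase gene, was 0.75 and 3.76 in the WT libraries, 20.7 and 2.11 in the KO libraries, with 15.3 and 11.6 FPKM under KO+DNMT3A, and Aldh1a2 was 3.61 and 3.18 FPKM in WT and under 1 FPKM in the other 4. Dhrs3, a retinal reductase gene, ranged from 1.88 to 7.32 FPKM.

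Liver, fat and gut, outside the islet, could supply some of these transcripts, and their markers were checked. Markers of acinar, duct, stroma, macrophage, Schwann and endothelial cells were read beside them. For liver, a major source of Rbp4, the genes Apoa1, Ahsg and Serpina1a were listed at 0 in all libraries. Alb was above 0 in KO replicate 2 alone, at 0.50 FPKM. Ttr, also on the liver list, ranged from 23.5 to 360 FPKM, but it is abundant in islets and cannot tell the 2 sources apart. For fat, Adipoq, Plin1, Lep and Cfd were at 0 throughout, and Fabp4 was 1.57 to 4.24 FPKM. For gut epithelium, where Pyy and Ghrl are also made, Cdx2 and Fabp2 were at 0 throughout, while Vil1 was 3.75 to 12 FPKM and Lgals4 3.61 to 13.1 FPKM. Of 9 acinar genes 7 were at 0 in all libraries, and Cela1 was 0 in WT and 4.06 to 10.5 FPKM elsewhere. Summed duct markers were 2280 and 160 in the WT libraries, 155 and 78.6 in the KO libraries, with 723.6 and 123 FPKM under KO+DNMT3A, with Cftr at 0 throughout. Summed stroma markers were 1094 FPKM in WT replicate 1 and 151 to 352 FPKM in the others, and 8 of 8 were detected. The part that duct and stroma RNA in WT replicate 1 had in its low hormone values was not tested. Summed macrophage markers were 508 and 478 in the WT libraries, 484 and 310 in the KO libraries, with 216 and 144 FPKM under KO+DNMT3A. Summed Schwann cell markers were 21.9 and 34.2 in the WT libraries, 20.5 and 87.0 in the KO libraries, with 27.0 and 15.9 FPKM under KO+DNMT3A, and those of endothelium ranged from 21.2 to 54.3 FPKM.

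Other genes were ranked by how closely their log2(FPKM + 1) values, centred over the 6 libraries, followed each of the 7. The measure is the root mean square difference, over 5135 other genes with a mean of at least 5 FPKM (5136 for Ghrl). Closest to Ppy were Cabp7 (0.19), Wdyhv1 (0.20) and Trappc6b (0.24), of which Trappc6b was 3.26 and 21.3 in the WT libraries against 58.2 and 18.4 FPKM in the KO libraries. Closest to Sst were Ypel4 (0.31), Cabp7 (0.32) and Fam92b (0.35), all listed at 0 in WT replicate 1. Closest to Pyy were the RNA-binding protein gene Celf4 (0.25), Sstr3 (0.27) and Bbs4 (0.28), and closest to Rbp4 were Celf4 (0.23), Cep70 (0.26) and 1110038F14Rik (0.30). Ghrl lay nearest to Ufsp1 (0.27), followed by Pyy (0.40) and Ppy (0.47). Gcg was nearest to Zcchc10 (0.14), Ppp4r3a (0.18) and Nedd4 (0.19), and Hhex to Cpsf2 (0.19), Id2 (0.21) and Aplp2 (0.21). Among the 7 themselves the closest pairs were Pyy with Rbp4 (0.38), Pyy with Ghrl (0.40) and Ppy with Pyy (0.41), and the farthest was Sst with Hhex (1.60). With 6 libraries, of which WT replicate 1 is low in most of these genes, a close match describes these libraries only.

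The genes around Ppy and Pyy were low throughout. Within 100000 bases on either side 7 other genes passed the filter, none above 13.2 FPKM. The nearest of these 7 upstream, Tmem101, was 1.61 and 6.45 in the WT libraries against 3.86 and 4.03 FPKM in the KO libraries. Mpp2, on the other side, was 0 and 2.34 in the WT libraries against 3.10 and 1.72 FPKM in the KO libraries. Both overlapped between the groups. Lsm12 was 8.95 and 13.2 in the WT libraries against 3.73 and 8.42 FPKM in the KO libraries, with KO entirely below WT. Levels of G6pc3 and Hdac5 ranged from 5.56 to 9.91 FPKM and from 4.50 to 8.36 FPKM over the 6 libraries.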

How the data were processed

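Values are FPKM per gene as deposited by the authors, per the file headers, in 1 column per library; no other column was present. HISAT2 2.0.4, StringTie 1.3.0, edgeR and mm10 are named per the submitters' processing notes, without their roles, and no counts were used. Symbols were matched by Ensembl identifier to GENCODE M21 (34267 of 34745 genes). The 13233 genes that reached 1 FPKM in 2 or more libraries were transformed as log2(FPKM + 1), and fitted over all 6 libraries with limma 3.58.1 (R 4.3.3; trended, robust empirical Bayes). The two-sided p-values were adjusted over all genes by the Benjamini-Hochberg method, with a threshold of 0.05. The fit was also run on simulated data, and how many differences it recovered there is not reported here. An exact permutation test of 2 against 2 libraries cannot go below p = 0.333. Fold changes of low genes are understated by the pseudocount.

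Depth was inferred from genes with a single transcript, whose FPKM should be whole multiples of 1 fragment: 84.3% to 91.8% of values up to 20 fragments were, within 0.01. Fragments per gene assume the longest coding transcript.

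The genes and lists were chosen with earlier results of these data known. Named genes are the 7, Rptor, Dnmt3a, Ins1, Ins2, Iapp and Npy, up to 4 genes of highest mean per list with those at an unadjusted p under 0.05, and the 3 genes of most similar pattern. Chga, Mboat4, genes named as at 0 and the neighbours of Ppy fall outside this rule and were named after their values were seen. Lists of other cell types are given mainly as summed FPKM, and some genes that the rule names are not reported here. Alternatives were another pseudocount, 2 other filters, 3 other scalings, no trend, fits of 2 groups, a replicate block and each library left out. Deviations of libraries with the same replicate number correlated at -0.27 for WT with KO, 0.10 for WT with KO+DNMT3A and 0.32 for KO with KO+DNMT3A, so the numbers were not taken to pair all groups. Python 3.11.15, pandas 2.3.3 and matplotlib 3.10.9 were used for tables and figures.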

Additional observations from a re-analysis of the deposited data

How the results depend on the processing

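No gene passed the limma test in any of the 3 comparisons, in the reported fit or in any of 49 alternative counts. At an unadjusted p under 0.05 there were 240 genes for KO against WT, 147 for KO+DNMT3A over KO, and 379 for KO+DNMT3A over WT. Of the log2 fold changes of the 7 genes, 14 of 343 alternative values changed sign and 0 passed. The other filters, no trend, fits of 2 groups, replicate blocks and leaving out a library of the third group could not move an estimate. These count among the 343. Under quantile normalization Gcg in KO+DNMT3A against WT was -0.10 and Pyy in KO+DNMT3A against KO was -0.31, and median scaling gave -0.15 for the latter. Leaving out a library moved Gcg in KO+DNMT3A against KO from -0.48 to 0.11, Ppy from -0.67 to 0.46, Pyy from -0.40 to 0.51, Sst from 0.14 to 1.57, Hhex from 0.01 to 1.20 and Ghrl from -1.51 to -0.11. It moved Ghrl in KO+DNMT3A against WT from 0.61 to 2.31. It moved Hhex from -0.52 to 0.30 in KO against WT and from -0.10 to 1.08 in KO+DNMT3A against WT. In a fit without both insulin-poor libraries, added after the values were seen, Gcg and Pyy in KO+DNMT3A against KO were 0.11 and -0.063, and Hhex in KO against WT was 0.027. The cause of these changes was not tested. For Gcg, Sst, Ppy, Pyy, Ghrl and Rbp4 in KO against WT none of the alternatives changed the sign. Only the 3 other scalings could have done so, because both KO libraries lay above both WT libraries for each gene. The replicate block left 0 genes called in each comparison. It could not move the estimates, because every group holds a library of each replicate number. The numbers in the deposited column names share only the number 3 between groups, so no block could be built on them, and a crossed replicate block of WT and KO, also added later, called 0 genes. Depth limits Ghrl, Hhex and, in WT replicate 1, Rbp4, each of which rested on few fragments there.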
